A study of Mus musculus with 6 samples.

Results

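The 38 genes described here repair broken or crosslinked DNA and signal its damage in dividing cells. They were taken by symbol from the pathway, with earlier results of these data known: Brca1, Bard1, Palb2, Brca2 and Brip1 of the BRCA complexes, 7 genes of strand exchange, 12 of the Fanconi pathway, 3 of mismatch repair and excision, 4 checkpoint kinases and 7 of break sensing and end resection. All 38 were found among the 21912 gene symbols of the mRNA table, each with 1 Ensembl gene identifier. The series holds 6 RNA libraries from mouse macrophages, of which 3 are labelled control and 3 M. The series is described as macrophages given oxidised low-density lipoprotein (ox-LDL), which loads them with lipid to make foam cells, and M is read here as that group. The labels spell out neither M nor a dose, a time, a strain or the source of the cells, and their extraction text calls the cells ox-LDL induced for all 6 libraries alike. Whether libraries of a group are separate cultures is not said. The p-values thus reflect only how libraries vary, and that variation may be technical.

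Homologous recombination mends a DNA break by copying the intact sister DNA, and so works mainly in cells that have replicated. BRCA1 and BARD1 act at the resected break, PALB2 and BRCA2 prepare the strand for exchange, and the Fanconi proteins unhook crosslinked strands after a core complex attaches ubiquitin to FANCI and FANCD2. The kinases ATM and ATR sense breaks and stalled forks, and CHEK2 and CHEK1 pass the signal on to stop the cell cycle. Many of these genes are transcribed in S phase under E2F transcription factors.

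Promoters of the members are shown before the values. RefSeq promoters (build GRCm38.p6, 250 bases before to 50 after a gene's start) matched 29 of the 38 symbols. The deposited values were made on build mm9, so these windows carry no measurement of this study. An E2F word (TTTCCCGC, TTTCGCGC, TTTGCCGC or TTTGGCGC, on either strand) stood in 7 of the 29 (24.1%), against 2.60% of the 27025 gene symbols with a promoter and 5.15% of the 7977 of tested genes. These 7 were Bard1, Brca2, Chek2, Fancg, Mdc1, Msh6 and Rad51c. The word CCAAT, on either strand, stood in 20 of the 29 (69.0%), against 41.1% of all promoters and 43.6% of those of tested genes. The word TTTGAA (the CHR element of late cell cycle genes, either strand) was in 1 member, Bard1 (3.45%, against 20.2% of all promoters and 14.3% of those of tested genes), and in 14 of 18 mitosis markers (77.8%). E2F and CCAAT words can share a letter at their ends. The median GC content was 59.7% in the members, 61.0% in tested genes and 52.8% in all promoters. A word is an exact match of letters, not a measured binding site, and lack of a word is not lack of a site.

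Of the 6 promoters printed here, 4 hold an E2F word: those of Bard1 and Msh6, whose RNA was far lower in M, and those of Brca2 and Mdc1, whose RNA differed little. Those of Brca1 and Rad51ap1, among the members with the largest differences, hold none. Exo1 and H2afx, whose differences were larger still, were not among the symbols matched to a promoter. Sequences run 5′ to 3′ on the gene's strand, with E2F and CCAAT words of either strand in capitals.
Bard1 (chr1:71102923-71103222, minus strand): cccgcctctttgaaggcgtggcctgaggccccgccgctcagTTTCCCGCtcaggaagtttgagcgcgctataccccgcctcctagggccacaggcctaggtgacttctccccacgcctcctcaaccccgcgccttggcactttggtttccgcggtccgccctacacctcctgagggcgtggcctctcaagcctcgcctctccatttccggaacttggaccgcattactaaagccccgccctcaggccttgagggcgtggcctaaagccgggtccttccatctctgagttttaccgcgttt
Msh6 (chr17:87974800-87975099, plus strand): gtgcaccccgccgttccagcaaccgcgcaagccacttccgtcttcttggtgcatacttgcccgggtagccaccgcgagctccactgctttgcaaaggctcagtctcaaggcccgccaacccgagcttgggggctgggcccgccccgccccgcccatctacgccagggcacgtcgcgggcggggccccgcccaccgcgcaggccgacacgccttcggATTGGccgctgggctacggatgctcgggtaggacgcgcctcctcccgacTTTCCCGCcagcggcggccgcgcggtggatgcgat
Brca2 (chr5:150522371-150522670, plus strand): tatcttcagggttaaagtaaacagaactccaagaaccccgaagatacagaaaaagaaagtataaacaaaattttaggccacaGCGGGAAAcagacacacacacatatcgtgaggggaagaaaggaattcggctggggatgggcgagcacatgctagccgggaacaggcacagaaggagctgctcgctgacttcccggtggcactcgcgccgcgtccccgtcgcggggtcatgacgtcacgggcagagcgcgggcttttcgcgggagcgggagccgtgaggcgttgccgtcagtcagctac
Mdc1 (chr17:35841248-35841547, plus strand): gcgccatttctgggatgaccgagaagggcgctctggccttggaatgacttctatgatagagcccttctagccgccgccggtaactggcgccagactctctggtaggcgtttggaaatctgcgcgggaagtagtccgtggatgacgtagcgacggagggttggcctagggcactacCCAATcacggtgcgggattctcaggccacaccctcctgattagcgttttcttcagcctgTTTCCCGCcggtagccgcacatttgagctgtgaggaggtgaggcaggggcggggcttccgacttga
Brca1 (chr11:101551906-101552205, minus strand): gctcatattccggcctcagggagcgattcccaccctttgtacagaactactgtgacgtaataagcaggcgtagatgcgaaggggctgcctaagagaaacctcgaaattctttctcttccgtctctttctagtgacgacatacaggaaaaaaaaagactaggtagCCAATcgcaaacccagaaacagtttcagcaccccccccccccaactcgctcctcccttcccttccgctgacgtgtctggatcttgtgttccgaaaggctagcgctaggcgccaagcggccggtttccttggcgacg
Rad51ap1 (chr6:126939538-126939837, minus strand): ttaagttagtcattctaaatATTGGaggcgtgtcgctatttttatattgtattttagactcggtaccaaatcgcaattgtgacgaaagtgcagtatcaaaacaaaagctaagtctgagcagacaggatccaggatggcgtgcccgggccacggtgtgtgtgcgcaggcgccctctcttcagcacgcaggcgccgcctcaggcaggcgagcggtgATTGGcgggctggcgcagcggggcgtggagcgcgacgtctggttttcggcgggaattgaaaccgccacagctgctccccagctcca

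**Figure D1:**
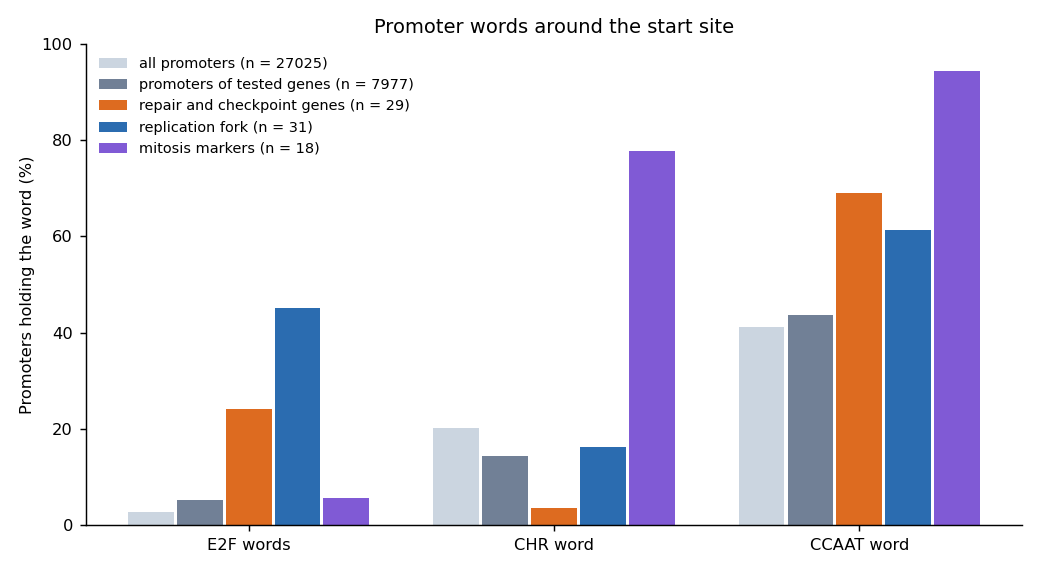
Share of promoters (%, y axis) that hold an E2F word, the CHR word or the CCAAT word, in all promoters, promoters of tested genes and 3 gene lists (bars, with the number of genes of each). The repair and checkpoint genes stand at 24.1%, 3.45% and 69.0%, the replication fork genes at 45.2%, 16.1% and 61.3%, and the mitosis markers at 5.56%, 77.8% and 94.4%.

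Most of the repair and checkpoint genes were lower in the M macrophages. Levels are FPKM (fragments scaled by transcript length and mapped fragments) summed over a gene's transcripts, and each difference is M less control, taken on log2(FPKM + 1). All 38 members passed the filter of a mean of at least 1 FPKM. Of them 31 were lower and 0 higher at a limma adjusted p under 0.05, with Benjamini-Hochberg adjustment over all 10390 tested genes, where 21.9% of genes were called lower and 21.2% higher (43.1% in either direction). The other 7 were not called, and their estimates were also below 0. The median log2 fold change of the members was -0.53, against -0.01 over all tested genes, and the median member stood at 63.6% of its control level. The size of that median depends on the pseudocount: it was -0.33 with 5 and -0.64 with 0.1 in place of 1. With a fold of at least 1.5 on this scale, 18 of the 38 were called lower, against 4.71% of tested genes. In 35 members every M library lay below every control library, a pattern seen in 28.1% of tested genes (55.7% had groups apart in either direction). The exceptions were Brca2, Fancf and Fance.

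**Figure D2:**
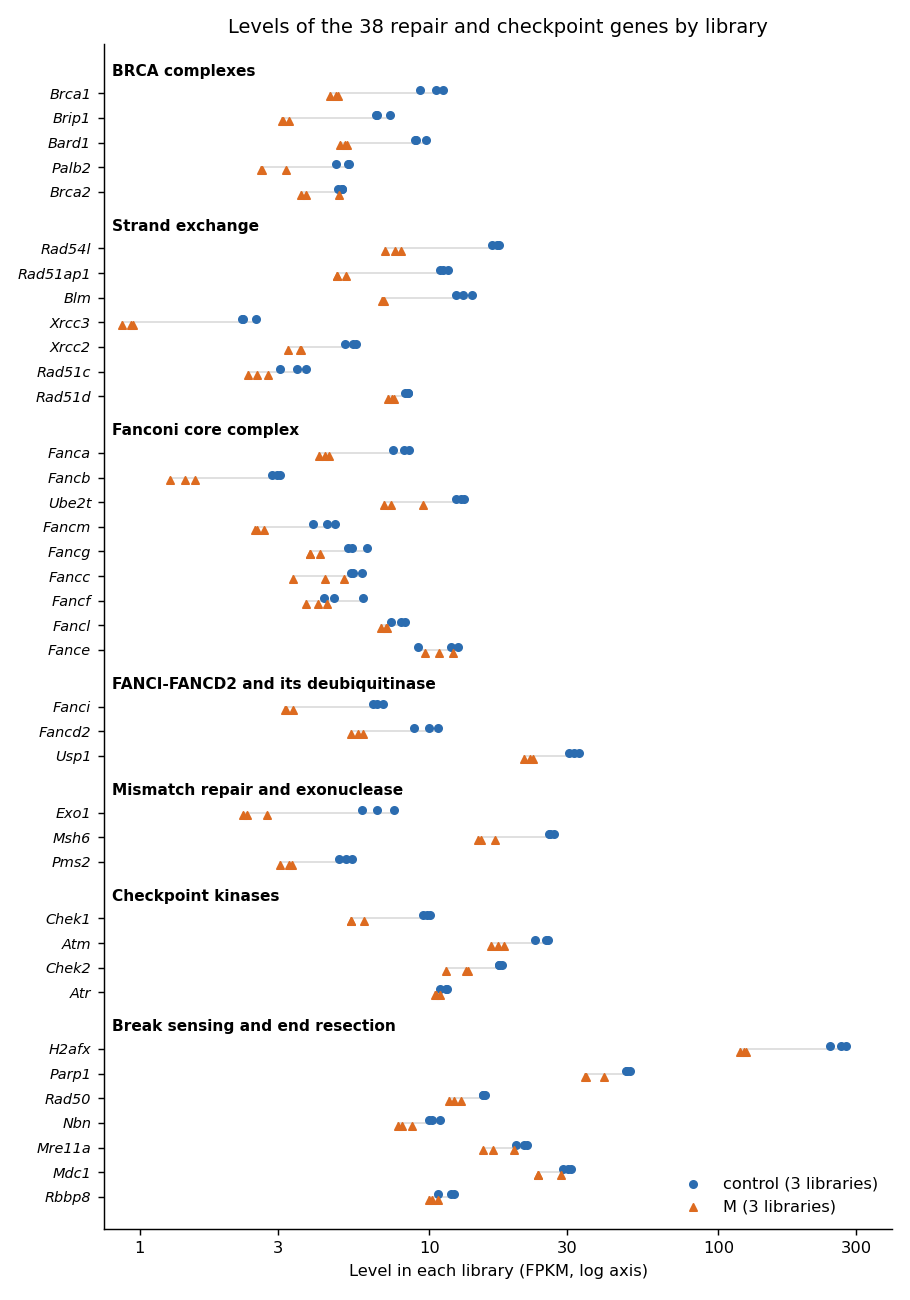
Level of each of the 38 genes in every library (FPKM, log axis), by role, with 3 control libraries as circles and 3 M libraries as triangles. H2afx lies far above the rest, and the groups overlap in Brca2, Fancf and Fance.

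Per library, the median member lay at 9.24, 9.89 and 9.93 FPKM in control 1 to 3 and at 5.36, 5.93 and 5.53 in M 1 to 3. No library of either group reached into the other. In bulk RNA, fewer cells in S phase and less RNA of these genes per cell cannot be told apart. Summed mRNA levels were 375467 to 390581 FPKM per library, though scaling to mapped fragments by itself tends to hold such sums close. Pearson's r over tested genes was 0.990 to 0.993 within groups and lower between them, at 0.961 to 0.968. Macrophage markers were high in both groups, at a summed 6680 to 7100 FPKM in control and 8690 to 8920 in M for 11 genes. The efferocytosis receptor Mertk was low at 0.128 and 0.127. Most of each sum was Lyz2, at a mean of 4610 FPKM in control and 6070 in M. Of 37 markers of other cell types, 21 were listed at 0 in every library, and the highest was Lck (control mean 2.44 FPKM, M mean 3.72). The sums of these other lists were at most 3.83 FPKM in any library, and their part in the result was not tested.

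The BRCA1 genes fell. Brca1 (ENSMUSG00000017146), the ubiquitin ligase and scaffold of the break, was at 9.30, 11.2 and 10.6 FPKM in control 1 to 3 and at 4.84, 4.53 and 4.77 in M 1 to 3. The M libraries lay close together, at 45.6% of the control mean (log2 fold change -0.99 ± 0.0724 SE, adjusted p = 3.46e-05). Its obligate partner Bard1 (ENSMUSG00000026196) fell from 9.25 ± 0.446 to 5.08 ± 0.144 FPKM (SD, n = 3), and the helicase Brip1 (FANCJ; ENSMUSG00000034329) from 6.80 ± 0.429 to 3.17 ± 0.102 (adjusted p = 3.23e-05 by limma). Palb2 (ENSMUSG00000044702), the bridge between BRCA1 and BRCA2, fell from 5.10 ± 0.293 to 2.83 ± 0.329 FPKM (adjusted p = 4.40e-04). Its call was lost when the most abundant transcript alone stood for the gene (adjusted p = 0.142).

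Brca2 (ENSMUSG00000041147), which prepares the strand for exchange, stood apart from the other 4. It was at 5.01, 5.01 and 4.83 FPKM in control and at 4.87, 3.76 and 3.60 in M. M 1 reached the control range and M 2 and M 3 did not, and the difference was not called (-0.24, 95% interval -0.46 to -0.01, adjusted p = 0.0825). Without M 1 it was called (-0.35, adjusted p = 0.00735). The ratio of Brca1 to Brca2 levels within a library went from 1.86, 2.23 and 2.19 in control to 0.995, 1.21 and 1.33 in M.

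The long non-coding RNA Brip1os, listed as antisense and named for the opposite strand of Brip1, was lower in the same libraries. It was at 17.1, 18.4 and 17.7 FPKM in control and 10.8, 11.4 and 11.6 in M (log2 fold change of FPKM + 0.1 -0.65 ± 0.0714 SE, limma adjusted p = 0.00285 over 1488 lncRNA transcripts, of which 10.6% were called). The sources used here do not say whether the libraries kept strand, so where the transcripts overlap, reads of Brip1 and Brip1os cannot be told apart.

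All 7 genes of strand exchange fell, by unequal amounts. Rad54l (ENSMUSG00000028702), a motor of strand exchange, was at 16.5, 17.5 and 17.1 FPKM in control and at 7.61, 7.02 and 8.02 in M (log2 fold change -1.08 ± 0.0575 SE, adjusted p = 8.53e-06). Rad51ap1 (ENSMUSG00000030346), which stimulates strand exchange, was at 11.2, 11.6 and 10.9 FPKM in control and at 5.16, 4.79 and 4.81 in M (-1.05 ± 0.0549, 7.72e-06). The groups were far apart beside the spread within them. Blm (ENSMUSG00000030528), the helicase that dissolves crossed strands, fell from 13.1, 14.1 and 12.4 FPKM to 7.0, 6.86 and 6.91 (adjusted p = 2.49e-05).

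Xrcc3, Xrcc2, Rad51c and Rad51d, which assist strand exchange, lay below the median member in all 3 control libraries. Xrcc3 (ENSMUSG00000021287) fell from 2.52, 2.25 and 2.27 FPKM to 0.928, 0.870 and 0.946, which is 39.0% of the control mean (log2 fold change -0.80, adjusted p = 1.29e-04). The pseudocount holds back the log2 value of such a low gene: with 0.1 in place of 1 it was -1.27. Xrcc2 (ENSMUSG00000028933) fell to 64.5% of control, from 5.39 ± 0.249 to 3.47 ± 0.204 FPKM (SD, n = 3). Rad51c (ENSMUSG00000007646) was called at 3.44 ± 0.349 against 2.56 ± 0.210 FPKM (-0.32, adjusted p = 0.0192) and Rad51d (ENSMUSG00000018841) at 8.39 ± 0.126 against 7.39 ± 0.178 (-0.16, 0.0307). Rad51c missed the threshold when control 1 (adjusted p = 0.0583), control 2 (0.0606), M 1 (0.0574) or M 2 (0.0548) was dropped. Rad51d missed it when control 1 was dropped (adjusted p = 0.0591), control 2 (0.0752), control 3 (0.0794), M 2 (0.0675) or M 3 (0.0920), and with quantile normalization (0.0831).

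**Figure D3:**
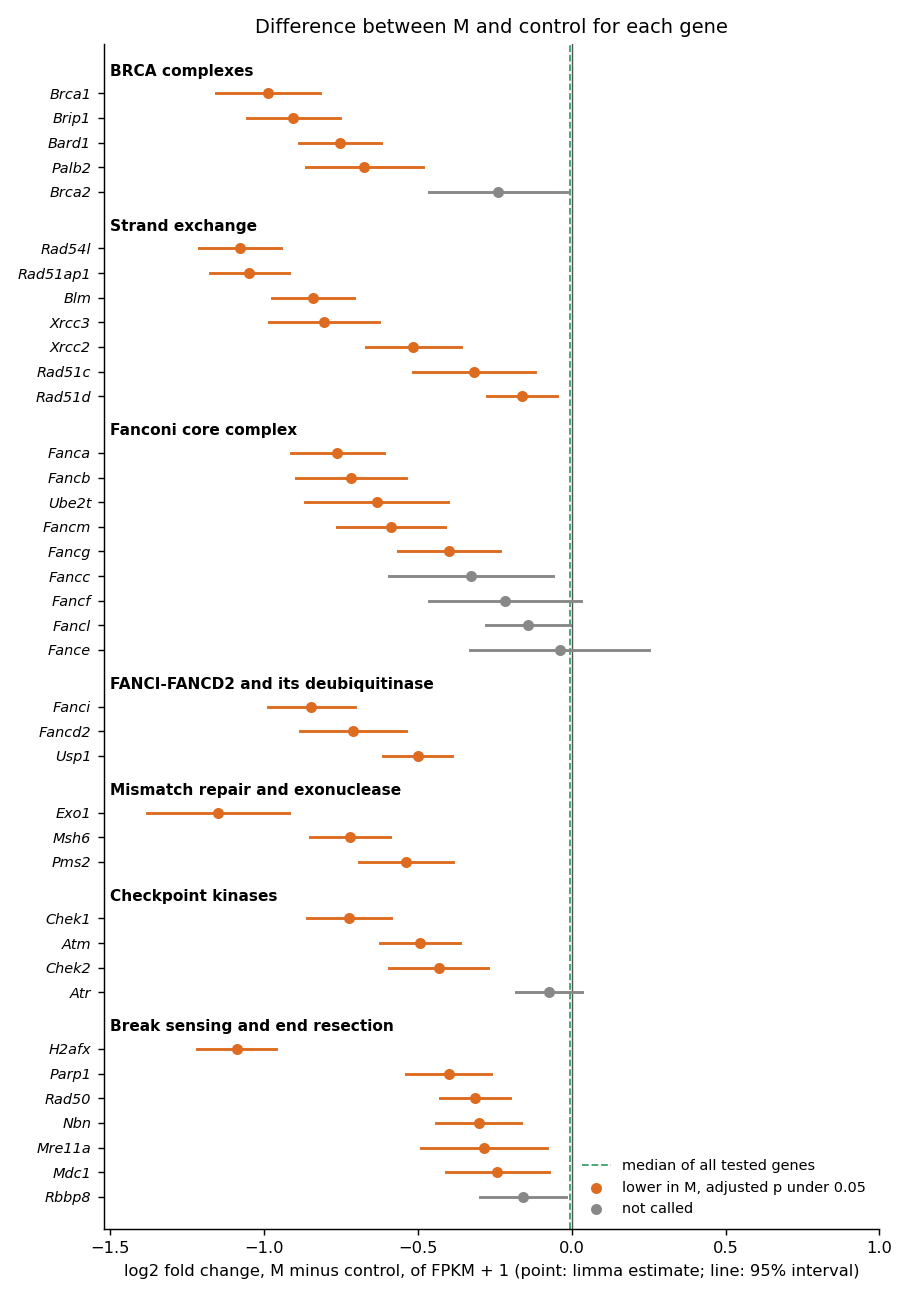
Log2 fold change of each gene (M minus control, of FPKM + 1; points, with 95% intervals as lines), by role, with genes called lower in one colour and those not called in grey. Exo1, H2afx, Rad54l and Rad51ap1 lie below -1, and Atr and Fance lie nearest to 0.

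Calls were mixed in the Fanconi core complex. Of its 9 genes, counting the ubiquitin-conjugating enzyme Ube2t, 5 were lower and 4 were not called. Differences between these genes were not tested. Fancg (called, -0.40, 95% interval -0.56 to -0.23) and Fancc (not called, -0.33, 95% interval -0.59 to -0.06) had similar estimates. Fanca (ENSMUSG00000032815), a scaffold subunit, was at 8.20, 8.55 and 7.50 FPKM in control and at 4.51, 4.17 and 4.38 in M (log2 fold change -0.76 ± 0.0647 SE, adjusted p = 7.04e-05). Fancb (ENSMUSG00000047757), of the catalytic module, fell from 2.96 ± 0.0945 to 1.42 ± 0.138 FPKM, to 47.8% of control. Fancm (ENSMUSG00000055884), the DNA-binding motor, and Fancg (ENSMUSG00000028453), of the FANCA module, fell to 58.9% and 71.4% of control (adjusted p = 5.76e-04 and 0.00293 by limma). Ube2t (ENSMUSG00000026429), the E2 enzyme, was at 12.9, 12.4 and 13.2 FPKM in control and 7.0, 7.39 and 9.49 in M, with M 3 the highest of its group (adjusted p = 0.00167).

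The 4 core genes that were not called were Fancc, Fancf, Fancl and Fance. Fancl (ENSMUSG00000004018), the ubiquitin ligase of the core, was at 7.37, 7.98 and 8.28 FPKM in control and at 7.12, 6.84 and 7.16 in M (-0.14, 95% interval -0.28 to -0.0048, adjusted p = 0.0878). Fance (ENSMUSG00000007570), which contacts FANCD2, was at 9.18, 12.6 and 11.9 in control and 9.68, 10.8 and 12.1 in M, with fully mixed groups (-0.04, 95% interval -0.33 to 0.25). Fancf (ENSMUSG00000092118), an adaptor, was at 4.97 ± 0.832 and 4.11 ± 0.338 FPKM (adjusted p = 0.136). Fancc (ENSMUSG00000021461) was at 5.44, 5.86 and 5.37 FPKM in control and 3.39, 4.35 and 5.07 in M (adjusted p = 0.0514), and its spread in M was the widest of the 4 in proportion to its mean. Fancc was called without M 3 (-0.44, adjusted p = 0.0158) and with a pseudocount of 5 (0.0467). The ratio of Ube2t to Fancl levels went from 1.74, 1.55 and 1.59 to 0.982, 1.08 and 1.32.

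The substrates of the core fell, as did the enzyme that cleans them. Fanci (ENSMUSG00000039187) was at 6.39, 6.93 and 6.58 FPKM in control and at 3.37, 3.19 and 3.18 in M, 49.0% of control (log2 fold change -0.85 ± 0.0606 SE, adjusted p = 3.17e-05). Its clamp partner Fancd2 (ENSMUSG00000034023) fell from 9.88 ± 0.922 to 5.64 ± 0.266 FPKM (adjusted p = 2.04e-04 by limma). Usp1 (ENSMUSG00000028560), which removes their ubiquitin, fell from 31.7 ± 1.38 to 22.1 ± 0.869, to 69.7% of control.

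Exo1 (ENSMUSG00000039748), the exonuclease of resection and mismatch repair, was at 5.84, 7.59 and 6.59 FPKM in control and at 2.27, 2.35 and 2.74 in M (-1.15 ± 0.0991 SE, adjusted p = 7.35e-05). With a pseudocount of 5 its log2 fold change was -0.65, and with the top transcript alone -0.80. Msh6 (ENSMUSG00000005370), which reads mismatches, was at 26.1, 27.0 and 26 FPKM in control and 16.9, 15.1 and 14.8 in M (-0.72, adjusted p = 4.51e-05). Pms2 (ENSMUSG00000079109), a nuclease of mismatch repair, fell from 5.14 ± 0.262 to 3.23 ± 0.161 FPKM (adjusted p = 4.58e-04).

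Of the 4 checkpoint kinases, 3 fell and Atr was not called. Atr (ENSMUSG00000032409), the kinase of stalled forks, was at 11.4, 11.5 and 10.9 FPKM in control and at 10.5, 10.6 and 10.9 in M (log2 fold change -0.07, 95% interval -0.18 to 0.04, adjusted p = 0.240). The groups nearly touch. Its effector Chek1 (ENSMUSG00000032113) was at 9.55, 9.84 and 10.1 FPKM in control and 5.36, 5.96 and 5.38 in M (-0.72 ± 0.0587 SE, adjusted p = 5.81e-05). Atm (ENSMUSG00000034218), the kinase of double-strand breaks, was at 23.3, 25.7 and 25.3 FPKM in control and 18.2, 17.3 and 16.4 in M (-0.49, adjusted p = 3.11e-04). Its effector Chek2 (ENSMUSG00000029521) was at 17.4, 17.5 and 17.8 FPKM in control and 13.6, 13.4 and 11.4 in M (-0.43, 0.00174). Chek1 thus lay closer to Atr in control than in M, at a ratio of 0.836, 0.855 and 0.924 against 0.509, 0.564 and 0.493. The ratio of Chek2 to Atm overlapped between the groups, at 0.711 ± 0.0319 and 0.738 ± 0.0423 (SD, n = 3).

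Among the 7 genes of break sensing and end resection, H2afx (ENSMUSG00000049932), the histone variant that ATM phosphorylates around a break, fell most. H2afx was by far the most abundant of all 38 members. It was at 277, 265 and 243 FPKM in control and at 125, 119 and 123 in M (log2 fold change -1.09 ± 0.0551 SE, adjusted p = 6.72e-06). Mdc1 (ENSMUSG00000061607), the reader of that mark, differed less, at 30.9, 30.2 and 29.1 FPKM in control and 23.8, 28.5 and 23.8 in M (-0.24, adjusted p = 0.0280). M 2 lay just under the control range. Parp1 (ENSMUSG00000026496), which makes poly(ADP-ribose) at nicks, fell from 48.6 ± 0.774 to 36.7 ± 3.16 FPKM (adjusted p = 0.00125 by limma).

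The MRN complex holds and trims broken ends. Rad50 (ENSMUSG00000020380), its tether, fell to 79.2% of control (adjusted p = 0.00143) and Nbn (ENSMUSG00000028224), which recruits ATM, to 79.3% (0.00477). The nuclease Mre11a (ENSMUSG00000031928) was at 21.3, 21.8 and 20.0 FPKM in control and 16.6, 15.3 and 19.7 in M (-0.28, adjusted p = 0.0336), with M 3 near the control range. Rbbp8 (CtIP, which starts resection; ENSMUSG00000041238) was at 11.6 ± 0.768 and 10.3 ± 0.378 FPKM (SD, n = 3) and was not called (-0.16, 0.0673). Within libraries the ratios of Nbn and of Rad50 to Mre11a overlapped between the groups. Mre11a missed the threshold when control 1 was dropped (adjusted p = 0.0906), control 2 (0.0937), control 3 (0.0519), M 1 (0.0989) or M 2 (0.0897) and with no filter (0.0648). Mdc1 missed it when control 1 was dropped (adjusted p = 0.0848), control 2 (0.0673), M 1 (0.0834) or M 3 (0.0894) and with no filter (0.0558), while Rbbp8 was called without control 2 (0.0260).

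Ratios were compared for 12 pairs of genes or lists, by exact two-sided permutation of 3 libraries against 3, which cannot go below p = 0.1. In 8 of the 12 the groups did not overlap, each at that smallest p (Benjamini-Hochberg adjusted 0.15), so none can pass a threshold of 0.05. They include Brca1 to Bard1 (1.12 ± 0.103 in control, 0.929 ± 0.0565 in M), Palb2 to Brca2 (1.03 ± 0.0733, 0.712 ± 0.176) and Fanci to Fancd2 (0.674 ± 0.0560, 0.577 ± 0.0465), each SD with n = 3.

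**Figure D4:**
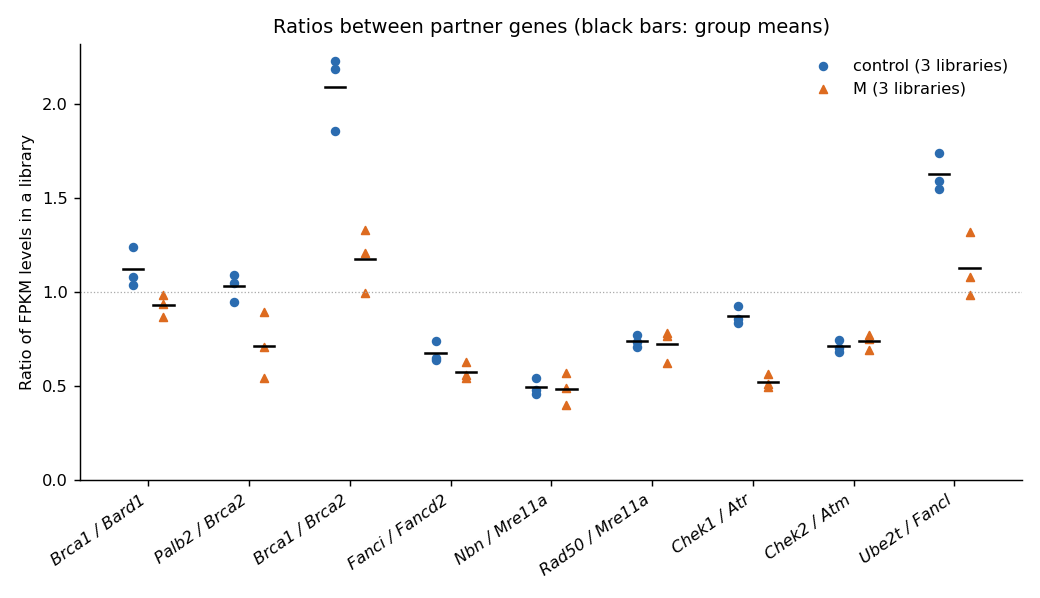
Ratio of the FPKM of 2 partner genes within each library (y axis), for 9 pairs, with control libraries as circles, M libraries as triangles and group means as black bars. The groups lie apart for Brca1 to Brca2 (1.86 to 2.23 against 0.995 to 1.33), among others, and overlap for Nbn to Mre11a, Rad50 to Mre11a and Chek2 to Atm.

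In 36 of the 38 members a single transcript carried at least 50% of the control level. The 38 genes had 115 transcripts in the table, 14 of them listed at 0 in every library, and 9 genes had a single one. Of 68 transcripts with a mean of at least 0.5 FPKM, 28 were lower and 0 higher on the log2(FPKM + 0.5) scale (limma adjusted p under 0.05 over 19726 transcripts, of which 8.04% were lower). With a replicate block, 12 of the 68 were lower and 0 higher. For Rad54l the transcript ENSMUST00000102704 carried 92.9% of the control level and fell from 15.8 ± 0.235 to 6.82 ± 0.775 FPKM. In Rad51ap1 both tested transcripts fell, ENSMUST00000112221 from 9.57 to 4.41 FPKM and ENSMUST00000112220 from 1.66 to 0.508. Mdc1 differed by transcript: ENSMUST00000082337 fell from 19.1 ± 0.515 to 14.3 ± 0.472 FPKM (adjusted p = 0.00327), and ENSMUST00000174124 was at 11 ± 1.43 and 11.1 ± 3.18 (0.976), a difference between transcripts that was not tested. The levels of Fance were spread over 8 transcripts, the largest at 46.2% of the control level. Palb2 had 4 transcripts, of which ENSMUST00000098068 carried 67.3% of the control level. None of the tested transcripts of Fance or Palb2 was called. Fancd2, Rad51c and Rad51d, called lower as genes, also had no called transcript. Their limma adjusted p were 0.0537 and 0.941 for Fancd2, 0.125 for Rad51c and 0.0885 for Rad51d. For Rad51c and Rad51d the tested transcript carried 100% of the gene's level. Their gene and transcript results thus differ through the pseudocount, the features fitted and the adjustment, not through the levels.

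The other genes of the pathway, from a list of 69, moved less evenly. Of 68 tested, 37 were lower and 6 higher (all tested genes: 21.9% and 21.2%), with a median log2 fold change of -0.22. The lower ones with the smallest adjusted p were Uhrf1 (a reader of crosslinks and of hemimethylated DNA), the CHEK1 adaptor Clspn, the ATR activator Topbp1, the single-strand binding subunit Rpa2, the helicase Hells and the fork protector Tipin. Clspn was at 12.8, 11.9 and 12.3 FPKM in control and 5.28, 4.78 and 4.83 in M (-1.16, adjusted p = 6.19e-06), and Topbp1 fell from 37.9 ± 1.53 to 20.2 ± 0.571 (SD, n = 3). Both act in ATR signalling to CHEK1. The 6 higher genes, named after their values were seen, were Tonsl, Mus81, Bre, Mlh3, Faap20 and Rad9b, with log2 fold changes of 0.17 to 0.49. Rmi2, with mean levels of 0.831 FPKM (control) and 0.385 (M), did not pass the filter.

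Genes of proliferation were lower in the same libraries. Of 39 replication fork genes, 35 fell and 0 rose (median -0.80), and of 20 mitosis markers, 19 fell and 0 rose (median -0.47). Over all tested genes, 21.9% were called lower and 21.2% higher. The proliferation marker Mki67 fell from 98.4 ± 4.03 to 61.9 ± 2.02 FPKM and the replication clamp Pcna from 159 ± 1.98 to 89.2 ± 1.31 (adjusted p = 2.36e-05 and 2.72e-06 by limma). Their part in the difference of the repair genes was not tested. The 37 members without H2afx summed to 439.2, 456.1 and 448.6 FPKM in control and 312.1, 305.3 and 309.2 in M. Against the summed replication genes this was a ratio of 0.460, 0.455 and 0.456 in control and 0.559, 0.539 and 0.574 in M. Against the mitosis markers the ratio was 0.482 ± 0.00782 and 0.479 ± 0.0320 (SD, n = 3), with overlapping groups. Against the other pathway genes it was 0.423, 0.441 and 0.424 in control and 0.376, 0.373 and 0.373 in M, lower in M. These ratios depend on leaving out H2afx, the most abundant member. With H2afx included, the members summed to 716.3, 721.2 and 691.2 FPKM in control and 437.1, 424.3 and 432.4 in M. On those sums the groups lay apart against the mitosis markers, lower in M, and overlapped against the replication genes.

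The E2F and RB family, which controls many S phase genes, had 12 of 19 genes lower and 0 higher (median -0.42). The shares over all tested genes were 21.9% lower and 21.2% higher. The activator E2f1 was at 17.9, 17.5 and 18.7 FPKM in control and 10.2, 9.55 and 8.72 in M (log2 fold change -0.86, adjusted p = 3.30e-05). E2f8, E2f2, E2f7, Mybl2 and the pocket protein Rbl1 were also lower. The other 7 were not called, among them E2f3 (-0.11) and E2f4 (0.01), of which E2f4 acts with pocket proteins in resting cells.

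**Figure D5:**
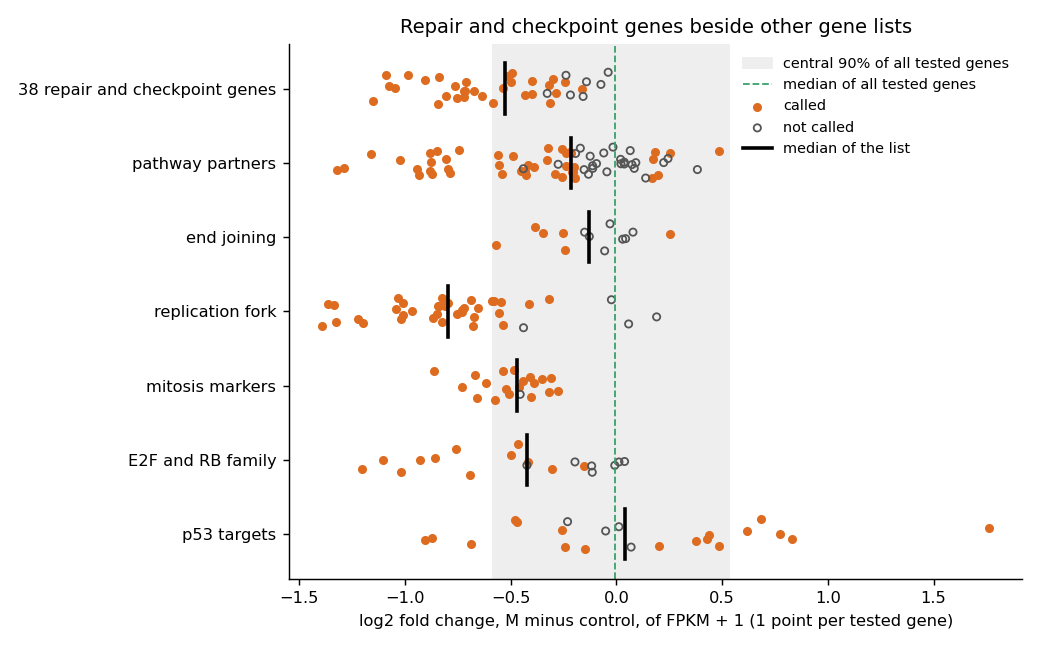
Log2 fold change (M minus control, of FPKM + 1; 1 point per tested gene) for the repair and checkpoint genes and 6 other lists, with called genes filled, list medians as black bars and the central 90% of all tested genes (-0.585 to 0.533) shaded. The median of the repair and checkpoint genes (-0.53) lies between those of the replication fork (-0.80) and the mitosis markers (-0.47).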

How the data were processed

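RNA of 3 control and 3 M libraries was taken with Trizol and made into libraries with a TruSeq RNA kit, per the labels' protocols. The authors deposited FPKM per transcript in an mRNA and a lncRNA table. Build mm9 is named in the submitters' processing notes, and the sources used here name no aligner, quantifier, annotation or strand handling. No read counts are given, so depth is not known in reads. The most frequent ratio of low values (under 0.1 FPKM, tolerance 0.1%) to control 1 put relative depth at 0.878 to 1.03, but rested on 10 to 22 of 282 to 322 low values per library, so no count test was run. An FPKM of 0 is read as listed at 0.

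FPKM were summed per symbol, kept at a mean of at least 1 over 6 libraries, and fitted as log2(FPKM + 1) with limma 3.58.1 in R 4.3.3 (two-sided eBayes, robust and with a trend; Benjamini-Hochberg over all genes). Transcripts used 0.5 as filter and pseudocount, and lncRNAs 0.1. The fit was first tested on simulated data. Tables were compared within themselves only. Members, lists and tests were chosen with earlier results of these data known, so their direction is no independent evidence. Named genes were all members and up to 6 called genes per context list with the smallest adjusted p, plus 5 set by name, of which Mki67, Pcna, Cdkn1a and E2f1 are given and 1 is not reported here; genes named outside this were chosen after their values were seen. Among the 38 members, RefSeq ranges (GRCm38.p6) overlap another protein-coding gene for 11, including Xrcc3 with Klc1, Rad54l with Lrrc41, Fancb with Mospd2, Fanca with Zfp276 and Fanci with Polg; without strand, reads of such overlaps cannot be told apart. The 14 alternatives tried were other pseudocounts, no filter, 2 scalings, the top transcript alone, plain eBayes, a replicate block and leaving out each library.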

Additional observations from a re-analysis of the deposited data

How the results depend on the processing

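No member changed direction with a call in any of the 14 alternatives, and 30 of the 38 kept their side of the threshold in all of them. The members called were 27 to 30 when 1 library was left out (31 with all), 31 with a pseudocount of 0.1, 32 with 5, 29 with no filter, 30 with quantile normalization or the top transcript alone, and 0 were higher each time. The median log2 fold change of the members was -0.64 with a pseudocount of 0.1 and -0.33 with 5, and -0.54 to -0.50 without 1 library. All genes called numbered 3686 to 4285 without 1 library, against 4480. End joining genes called fell to 3 with the top transcript alone, against 6. Deviations of same-numbered control and M libraries correlated at 0.066, 0.005 and -0.035, against -0.07 to 0.066 for differently numbered ones. These values gave no sign of pairing by replicate number but cannot exclude it, and the labels do not say. With the replicate block, 29 members were called lower, and member transcripts called numbered 12, against 28 without it and 20 to 25 without 1 library; Rad51d (adjusted p = 0.0662) and Mre11a (0.0658) lost their calls. With 3 libraries a group and no counts, differences as small as that of Atr or Fance could not be told from 0.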

Other observations

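Genes of end joining, the repair route that works without a sister copy, were also measured. Of 13 tested, 5 were lower and 1 was higher, with a median log2 fold change of -0.13, where 21.9% of all tested genes were lower and 21.2% higher. With the top transcript alone 3 were lower and 0 higher. The polymerase of microhomology joining Polq went from 4.21 ± 0.128 to 2.51 ± 0.196 FPKM (SD, n = 3; -0.57, limma adjusted p = 4.60e-04), and the nick repair scaffold Xrcc1 from 16.4 ± 0.572 to 12.3 ± 0.249 (-0.38, 3.97e-04). Aplf, the kinase Prkdc and the Ku subunit Xrcc6 were the other lower genes, with Prkdc at 82.5% and Xrcc6 at 83.4% of control. The other Ku subunit, Xrcc5, was higher at 124% of control, at the edge of the threshold (adjusted p = 0.0495). No end joining gene was higher with no filter, with the replicate block, or when control 1, control 2, M 2 or M 3 was left out.

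Targets of p53, the factor that the ATM and ATR kinases activate, went both ways. Of 22 tested, 10 were higher and 8 lower (all tested genes: 21.2% and 21.9%), with a median of 0.04. Gadd45a was at 6.95, 6.13 and 6.72 FPKM in control and 21.7, 24.4 and 28.7 in M (1.76, adjusted p = 1.22e-05), and Mdm2, the p53 ubiquitin ligase, rose from 31.1 ± 2.23 to 50.5 ± 3.25. Btg2, Sesn1 and Trp53inp1 fell, to 51.9%, 53.2% and 56.5% of control. Cdkn1a, the p21 cyclin kinase inhibitor, was at 114, 111 and 117 FPKM in control and 114, 117 and 127 in M, and was not called (0.07, adjusted p = 0.3).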
